A study of Mus musculus with 6 samples.

Results

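Bnip3, Ddit4, Stc1 and Igfbp3 are 4 protein-coding genes that are induced by low oxygen or by a shortage of energy. They were looked up by symbol among 617 genes listed for right ventricular (RV) tissue of neonatal mice after pulmonary artery banding (PAB), an operation that constricts the pulmonary artery with a thread and makes the RV eject against a higher pressure. All 4 were found. The mice were wild type of the strain labelled C57/BL6J. They underwent PAB or a sham operation without a band on postnatal day 1, RV tissue was taken on postnatal day 7, and 3 sham and 3 PAB libraries were sequenced. The labels do not state whether a library holds the RNA of a single mouse, so the spread between libraries may be partly technical. Mice of either sex were operated on, and the extraction text of the labels names the rat, whereas the organism and the gene identifiers are those of the mouse.

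The 4 genes were selected on their difference between PAB and sham in these 6 libraries, and every gene of the table was listed by the authors for such a difference, at 1 or more on the log2 scale in either direction. Fold changes, overlaps and counts are therefore descriptions, and no p-value is given for them. The deposited values, here called normalized reads, are counts of reads that the authors scaled with 1 size factor for each library. The size factors lay between 0.939 and 1.07, and the listed genes held from 301448 to 659521 reads per library. Total depth is unknown, because genes outside the table were not analysed here. Over the listed genes, PAB replicate 1 was the library least like the sham libraries and PAB replicate 3 the most like them, with correlations of log2(value + 1) of 0.597 to 0.627 and of 0.777 to 0.788. Of 12 cardiomyocyte markers only Pln was listed, so the tissue label could not be checked against its markers.

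When oxygen falls, hypoxia-inducible factors are no longer degraded and bind short DNA elements near genes for glucose use, vessel growth and adaptation of mitochondria. BNIP3, a protein of the BCL-2 family in the outer mitochondrial membrane, marks mitochondria for mitophagy, and DDIT4 (also called REDD1) restrains the growth kinase complex mTORC1. STC1 and IGFBP3 are secreted: stanniocalcin is a glycoprotein hormone that acts on calcium and phosphate transport and inhibits pappalysin proteases, and IGFBP3 is the main carrier of insulin-like growth factors in blood.

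Bnip3 is a gene of the minus strand of chromosome 7 (GRCm38, bases 138890836 to 138909519), and its transcript Bnip3-201 has 6 exons. Sham replicates 1, 2 and 3 had 694.2, 676.1 and 981.6 normalized reads, and PAB replicates 1, 2 and 3 had 3262, 2459.5 and 1569.6. The groups did not overlap, and the lowest PAB library was 1.60 times the highest sham library. The mean was 784.0 ± 171 (SD, n = 3) in the sham group, and in the PAB group it was 2430.4 ± 847 (SD, n = 3), a ratio of 3.10. The log2 fold change was 1.59 (standard error 0.30) on the scale log2(value + 1). Stretches of up to 858 bases of the Bnip3 transcripts occur with at least 95% identity in 5 other genes, among them the antisense gene Gm45507, which overlaps 504 of the 2265 exonic bases. How reads were assigned to strands and to near-identical copies is not given in the sources used here, so the Bnip3 values are uncertain to that extent.

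Ddit4, a gene of 3 exons on chromosome 10 (GRCm38) from 59949669 to 59951834 on the minus strand, was the member with the widest spread. Its normalized reads were 270.5, 212.3 and 430.0 in sham replicates 1, 2 and 3 and 1834, 1156.4 and 380.5 in PAB replicates 1, 2 and 3. PAB replicate 3 lay below sham replicate 3, so the groups overlapped. The mean was 304.3 ± 113 (SD, n = 3) in the sham group, and in the PAB group it was 1123.6 ± 727 (SD, n = 3), a ratio of 3.69. The log2 fold change was 1.67 (standard error 0.50). PAB replicate 1 was 6.03 times the sham mean, PAB replicate 2 was 3.80 times and PAB replicate 3 was 1.25 times. Without PAB replicate 3 the log2 fold change was 2.32 and the groups no longer overlapped, which also held without sham replicate 3 (1.95), and without PAB replicate 1 it was 1.19.

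Stc1, a gene of 4 exons on chromosome 14 from 69029238 to 69041804 on the plus strand, was the least abundant member. Sham replicates 1, 2 and 3 had 87.0, 58.9 and 72.4 normalized reads, which stand for 92, 63 and 69 reads, and PAB replicates 1, 2 and 3 had 397.3, 327.3 and 186.8. Each PAB library exceeded each sham library, the lowest by a factor of 2.15 over the highest sham library. The mean was 72.8 ± 14.1 (SD, n = 3) in the sham group, and in the PAB group it was 303.8 ± 107 (SD, n = 3), a ratio of 4.17. The log2 fold change was 2.0 (standard error 0.32). An antisense gene, Gm41192, overlaps 229 of the 4197 exonic bases of Stc1.

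Igfbp3, on chromosome 11 from 7206086 to 7213923 on the minus strand with 5 exons, had the largest fold change of the 4 genes. Sham replicates 1, 2 and 3 had 668.6, 553.6 and 607.2 normalized reads, and PAB replicates 1, 2 and 3 had 5116, 3277 and 1613. The groups were far apart, with a ratio of 2.41 between the lowest PAB and the highest sham library. The mean was 609.8 ± 57.6 (SD, n = 3) in the sham group, and in the PAB group it was 3335 ± 1752 (SD, n = 3), a ratio of 5.47. The log2 fold change was 2.30 (standard error 0.37). No overlap with exons of another gene and no shared stretch was found for Igfbp3 or Ddit4.

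**Figure D1:**
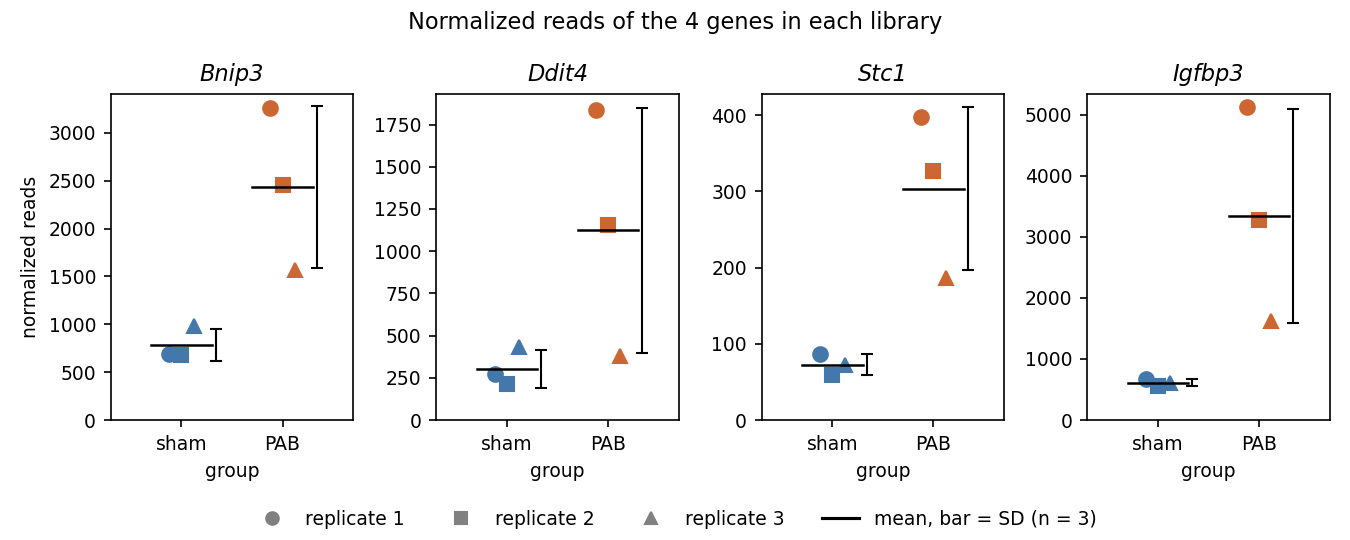
Normalized reads (vertical axis, linear and starting at 0, with its own scale in each panel) of Bnip3, Ddit4, Stc1 and Igfbp3 in the 3 sham and 3 PAB libraries. Symbols are replicates, lines are means and bars are the SD (n = 3); PAB replicate 1 was highest and PAB replicate 3 lowest among the PAB libraries for each gene, and only for Ddit4 did a PAB library (380.5) lie below a sham library (430.0).

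In 3 of the 4 genes the PAB and sham values did not overlap, whereas 97.1% of the 617 listed genes had no overlap, and 44.6% had none and were higher in PAB. In limma all 4 genes passed an unadjusted and an adjusted threshold of 0.05, as did 100% of the listed genes, 47% of them higher in PAB, so these counts tell nothing about the 4. Among the 290 listed genes that were higher in PAB, Igfbp3 ranked 52 by log2 fold change, Stc1 76, Ddit4 110 and Bnip3 125. The median log2 fold change of those 290 genes was 1.45. For comparison, Nppa and Nppb, which encode natriuretic peptides released by stretched heart muscle, had log2 fold changes of 5.60 and 2.43. All 4 genes lay above that median and below both natriuretic peptide genes. Igfbp3 lay below Nppb by less than either standard error (0.37 and 0.26), and both had a ratio of means of 5.47. Of 15 genes known from pressure overload, 7 were listed: Nppa, Nppb, Acta1, Ankrd1, Xirp2 and Ctgf were higher in PAB and Pln, which restrains the calcium pump of the sarcoplasmic reticulum, was lower (-1.15).

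Levels of different genes can be compared only per length. Per kilobase of exon, mean levels in sham were 346.1 ± 75.7 normalized reads for Bnip3, 194.8 ± 18.4 for Igfbp3, 173.4 ± 64.2 for Ddit4 and 17.3 ± 3.35 for Stc1 (SD, n = 3). The sham libraries of Bnip3 all lay above those of the other 3 genes, Igfbp3 and Ddit4 overlapped, and Stc1 lay below the rest in each library. In PAB the means per kilobase were 1073 ± 374 for Bnip3, 1066 ± 560 for Igfbp3, 640.2 ± 414 for Ddit4 and 72.4 ± 25.5 for Stc1 (SD, n = 3). Bnip3 and Igfbp3 were therefore at overlapping levels in PAB, with Igfbp3 above Bnip3 in PAB replicate 1 and below it in the other libraries. The ratio of Bnip3 to Igfbp3 per kilobase was 1.43, 1.69 and 2.23 in sham replicates 1, 2 and 3 and 0.881, 1.04 and 1.34 in PAB replicates 1, 2 and 3. The ratio of Bnip3 to Stc1 varied from 14.8 to 25.1 over the sham libraries and only from 13.9 to 15.6 over the PAB libraries.

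The spread within the PAB group was wide and had the same order in all 4 genes, with replicate 1 highest, replicate 2 between and replicate 3 lowest. That order was also found in 199 of the 290 higher genes (68.6%) and in 17 of the 327 lower genes (5.20%). Among the lower genes the reverse order was the commonest, in 137 of 327 (41.9%). The highest PAB library exceeded the lowest by a factor of 2.08 in Bnip3, 2.13 in Stc1, 3.17 in Igfbp3 and 4.82 in Ddit4. As a coefficient of variation, the PAB spread was 34.8% in Bnip3, 35.3% in Stc1, 52.5% in Igfbp3 and 64.7% in Ddit4, beside a median of 40.2% over the 290 higher genes. The counting error of the mean number of reads would give from 1.76% to 5.80%. In sham the coefficients were 21.9% in Bnip3, 37.0% in Ddit4, 19.3% in Stc1 and 9.44% in Igfbp3, beside a median of 19.7%. For Stc1, with a mean of 74.7 reads in sham, counting error alone would give 11.6%.

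In the sham libraries the 4 genes followed 2 orders. Bnip3 and Ddit4 were highest in replicate 3, by 0.35 and 0.56 above their group means on the log2 scale, while Stc1 and Igfbp3 were highest in replicate 1, by 0.27 and 0.14. These were the 2 commonest sham orders among the 290 higher genes of the table, at 26.6% for that of Bnip3 and Ddit4 and 18.3% for that of Stc1 and Igfbp3. Deviations from the group means over the 6 libraries were correlated at r = 0.983 between Bnip3 and Ddit4 and at 0.947 between Stc1 and Igfbp3. Across the 2 orders r was 0.794 (Bnip3 and Stc1), 0.864 (Bnip3 and Igfbp3), 0.885 (Ddit4 and Stc1) and 0.919 (Ddit4 and Igfbp3). These values are descriptions over 6 libraries that share their size factors, and the PAB libraries weigh most in them. Of the other higher genes with a mean of at least 10, from 14.3% (Stc1) to 28.7% (Igfbp3) reached an r above 0.9 with a member.

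**Figure D2:**
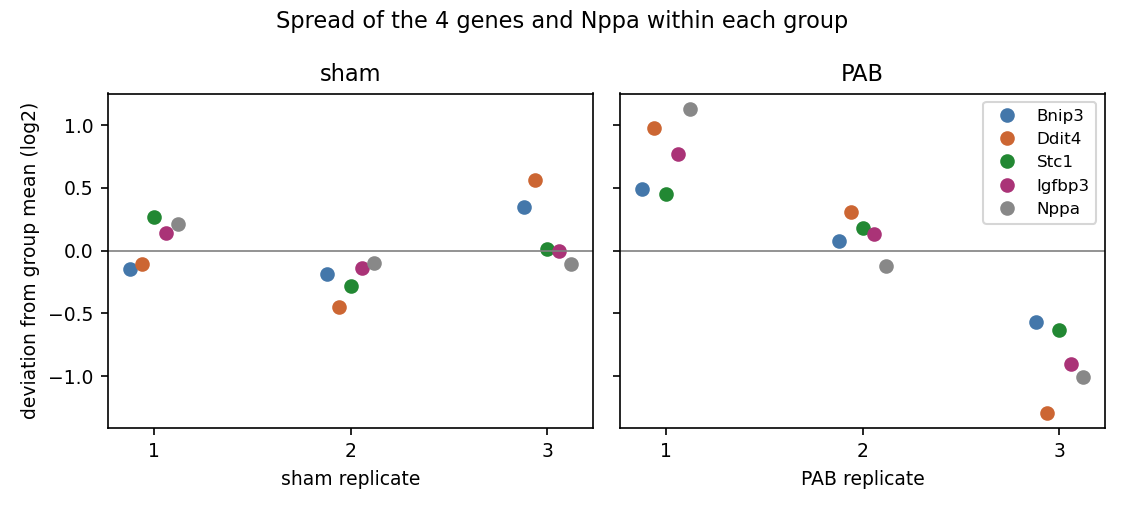
Deviation of log2(value + 1) from the mean of the group (vertical axis) in each sham (left) and PAB (right) replicate for the 4 genes and Nppa. Each point is 1 library; in PAB all 5 genes lay highest in replicate 1 and lowest in replicate 3, with Ddit4 at 0.98 and -1.29, and in sham Bnip3 and Ddit4 lay highest in replicate 3.

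The genes whose spread within groups was most like that of a member were found by the same correlation over the 6 libraries. For Bnip3 they were Syndig1, Wisp2 and Gm12319, with r of 0.999, 0.995 and 0.994. Gm12319 was lower in PAB (log2 fold change -2.26), and Syndig1 was nearly absent in sham, with 0, 0 and 1.05 normalized reads. Its sham deviations thus come from the low value of a single library, and its r is no sign of a like spread in sham. For Ddit4 they were Ackr4, Timp3 and Ston1 (0.995, 0.993 and 0.990). Timp3, an inhibitor of metalloproteinases, averaged 574.3 ± 117 (SD, n = 3) in the sham libraries and 1548.6 ± 771 (SD, n = 3) in the PAB libraries. For Stc1 they were Ttc9, Igf2bp3 and Fam117b (0.995, 0.982 and 0.981), and for Igfbp3 they were Unc5b, Specc1 and Vwf (0.997, 0.995 and 0.993). Exons of Syndig1, Ackr4, Timp3, Ston1, Igf2bp3 and Fam117b overlap those of another gene on the opposite strand. Vwf has no such overlap, but its transcripts match 48 other genes over stretches of up to 186 bases. Unc5b encodes a netrin receptor of endothelial cells and Vwf the von Willebrand factor that endothelial cells make. Nppa had an r of 0.971 with Igfbp3 and of 0.800 with Bnip3.

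Vwf was the only listed gene of 14 endothelial markers, and its log2 fold change was 1.11. Its normalized reads were 1488, 1334 and 1283 in sham replicates 1, 2 and 3 and 4791, 3251 and 1637 in PAB replicates 1, 2 and 3. It was lowest in sham replicate 3, where Bnip3 and Ddit4 were highest. Its r was 0.817 with Bnip3, 0.879 with Ddit4, 0.925 with Stc1 and 0.993 with Igfbp3, against a median over the higher genes of 0.739, 0.732, 0.703 and 0.787. Of the other cell types the sample could hold, Cnn1 of 11 mural markers and Krt8 of 8 epicardial and mesothelial markers were higher in PAB, with log2 fold changes of 1.84 and 1.19. Dpt of 12 fibroblast markers, C1qa of 12 macrophage markers and Dbh of 9 neural and Schwann markers were lower, with -1.20, -1.12 and -3.63. Of 8 atrial markers, Nppa was higher and Stard10 lower (-1.97), and none of 9 lymphocyte, 7 neutrophil or 8 erythroid markers was listed. The part of cell composition in the values of the 4 genes was not tested. In bulk tissue, more cells of a type and more RNA per cell cannot be told apart.

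Leaving out any 1 library kept the log2 fold change above 1 for each of the 4 genes. The genes were selected on these same libraries, so this is a description and no independent support. The range of the log2 fold change is given next. The log2 fold change lay between 1.35 and 1.87 for Bnip3, 1.19 and 2.32 for Ddit4, 1.77 and 2.31 for Stc1 and 1.92 and 2.75 for Igfbp3. The lowest value came without PAB replicate 1 and the highest without PAB replicate 3 in all 4 genes.

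**Figure D3:**
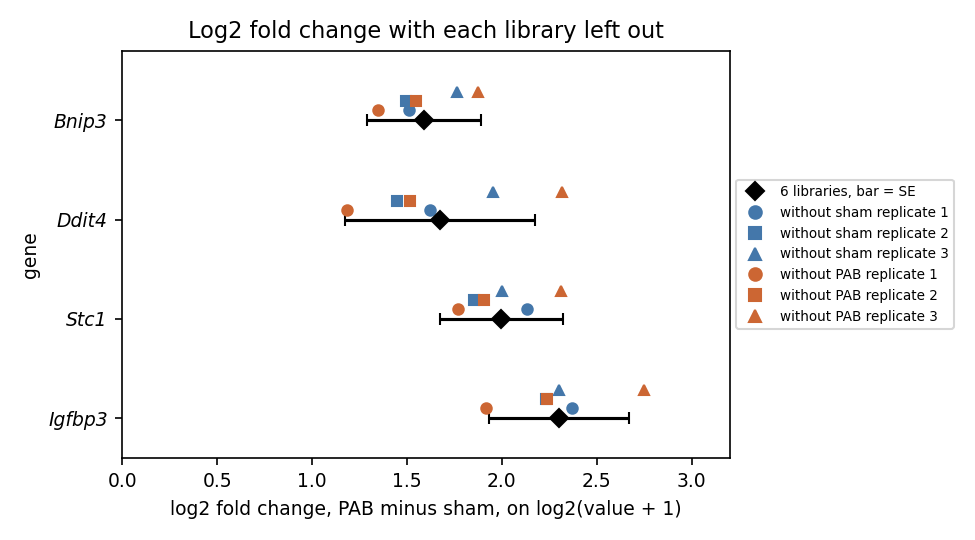
Log2 fold change of PAB against sham (horizontal axis, on log2(value + 1)) for the 4 genes. Diamonds with bars are the values and standard errors over 6 libraries and the other symbols leave out 1 library each; the values without PAB replicate 1 (1.35 to 1.92, with Ddit4 at 1.19) were lowest and those without PAB replicate 3 (1.87 to 2.75) highest.

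Promoter sequences of Bnip3, Ddit4 and Igfbp3 were taken from RefSeq (GRCm38.p6) and searched for ACGTG and GCGTG on both strands, the core letters of the hypoxia response element. The window held 250 bases before to 50 after the start of transcription, and 3 of the 4 genes had an entry; Stc1 had none. The part before the first base transcribed in RefSeq or GENCODE, 186 to 250 bases, is shown for the 3 genes with an entry, so that the matches can be read in place, with the searched letters in capitals (CACGT and CACGC are their reverse complements). Bnip3 at chr7:138909520-138909756, Ddit4 at chr10:59951835-59952020 and Igfbp3 at chr11:7213924-7214173 are each read on the minus strand from 5′ to 3′.
Bnip3: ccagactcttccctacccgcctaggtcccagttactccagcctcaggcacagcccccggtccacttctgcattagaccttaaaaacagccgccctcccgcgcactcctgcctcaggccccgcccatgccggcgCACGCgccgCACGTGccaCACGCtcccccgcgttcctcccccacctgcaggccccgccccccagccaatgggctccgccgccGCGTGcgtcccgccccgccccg
Ddit4: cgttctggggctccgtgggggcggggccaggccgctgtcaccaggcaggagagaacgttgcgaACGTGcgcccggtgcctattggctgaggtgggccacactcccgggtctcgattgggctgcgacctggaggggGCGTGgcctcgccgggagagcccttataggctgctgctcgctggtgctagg
Igfbp3: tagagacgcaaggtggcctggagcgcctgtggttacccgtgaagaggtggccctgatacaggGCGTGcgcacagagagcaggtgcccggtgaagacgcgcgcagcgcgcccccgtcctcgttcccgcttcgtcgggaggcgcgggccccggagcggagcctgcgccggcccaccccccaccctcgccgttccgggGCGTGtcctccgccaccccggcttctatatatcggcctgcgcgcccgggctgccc

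In Bnip3 the palindrome CACGTG gave a match of ACGTG on each strand, at positions -108 and -107 from the RefSeq start, and GCGTG matched at -117, -99 and -35. Ddit4 held ACGTG at -187 and GCGTG at -115. In Igfbp3 only GCGTG matched, at -188 and -55. ACGTG was present in 19.6% of the 32851 mouse promoters of this length and GCGTG in 32.4%, and 43.8% held either. Among promoters of the listed genes, 54.9% of those higher in PAB and 49.7% of those lower in PAB held either. Of 12 promoters of the other listed hypoxia-induced genes, 83.3% held either. The promoters of the 3 genes were rich in G and C, at 69.0% to 71.7% against a median of 52.7% over all promoters. None of these shares is matched for that content, so they are not the background of promoters of like composition. A match describes the letters and not the binding of a factor.

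Beyond the 4 genes, 14 other genes of a list of 75 hypoxia-induced genes were in the table, and 12 of these were higher in PAB and 2 lower. None overlapped between the groups, beside 97.1% of all listed genes without overlap, so this count is near the background. The median log2 fold change of the 12 higher genes was 1.18, below the median of 1.45 over all 290 higher genes. Over the 14 genes the median was 1.11, and over all 617 listed genes, of which 47.0% were higher, it was -1.03; since the table leaves out small differences, the latter only reflects that more of its genes were lower. Without PAB replicate 1, the median over all 18 listed genes, the 4 included, was 1.05 in place of 1.27. The list was written with earlier results of these data known, and genes of it outside the table were not analysed here. Counts, medians and orders of the list include Car9 and Aldoc, both higher in PAB and named after their values were seen. The order of PAB replicates 1, 2 and 3 from high to low held in 12 of the 12 higher genes, beside 68.6% of all 290 higher genes, of which it was the commonest order. Of the 45 genes named besides the 4, exons of 20 overlap another gene and 20 match one over 100 bases or more with an identity of 95% and above, so reads of these genes could be split or shared to an unknown extent. The overlap took 64.7% of the exonic bases in Pln and 61.5% in Nppa, against 22.3% in Bnip3 and 0.6% in Lox. Among the 14 hypoxia-induced genes besides the 4, the longest stretches were in Loxl2 (2348 bases), Selenbp1 (1712) and Pgam1 (765), beside 858 bases in Bnip3.

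In glucose use and acid export, Slc16a3, which exports lactate, averaged 180.8 ± 22.2 (SD, n = 3) in the sham libraries and 987.1 ± 675 (SD, n = 3) in the PAB libraries. Slc2a1, the glucose transporter GLUT1, had 247.0 ± 22.9 and 629.5 ± 344 (SD, n = 3). The glycolytic enzymes Pfkp and Pgam1 had log2 fold changes of 1.33 and 1.02, and the glycogen branching enzyme Gbe1 of 1.07. The log2 fold change of Slc16a3, 2.23, was close to that of Igfbp3.

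Collagen-modifying enzymes of the list were higher in PAB, with log2 fold changes of 1.41 for Lox, 0.98 for Loxl2 and 0.97 for Plod2. Among secreted and receptor proteins, Edn1, the precursor of endothelin, had a log2 fold change of 1.15 and Flt1, a receptor of vascular endothelial growth factor, of 1.06. The 2 lower genes were Apln, the ligand of the apelin receptor, with 2553 ± 472 (SD, n = 3) in the sham and 1221.3 ± 136 (SD, n = 3) in the PAB libraries, and Selenbp1, a selenium-binding protein, with 1118.4 ± 159 and 468.7 ± 103 (SD, n = 3). Car9, a carbonic anhydrase, and Aldoc, an aldolase, were named after their values were seen. Their log2 fold changes were 3.42 and 1.38, and Car9 had only from 2.81 to 13.2 normalized reads in sham.

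**Figure D4:**
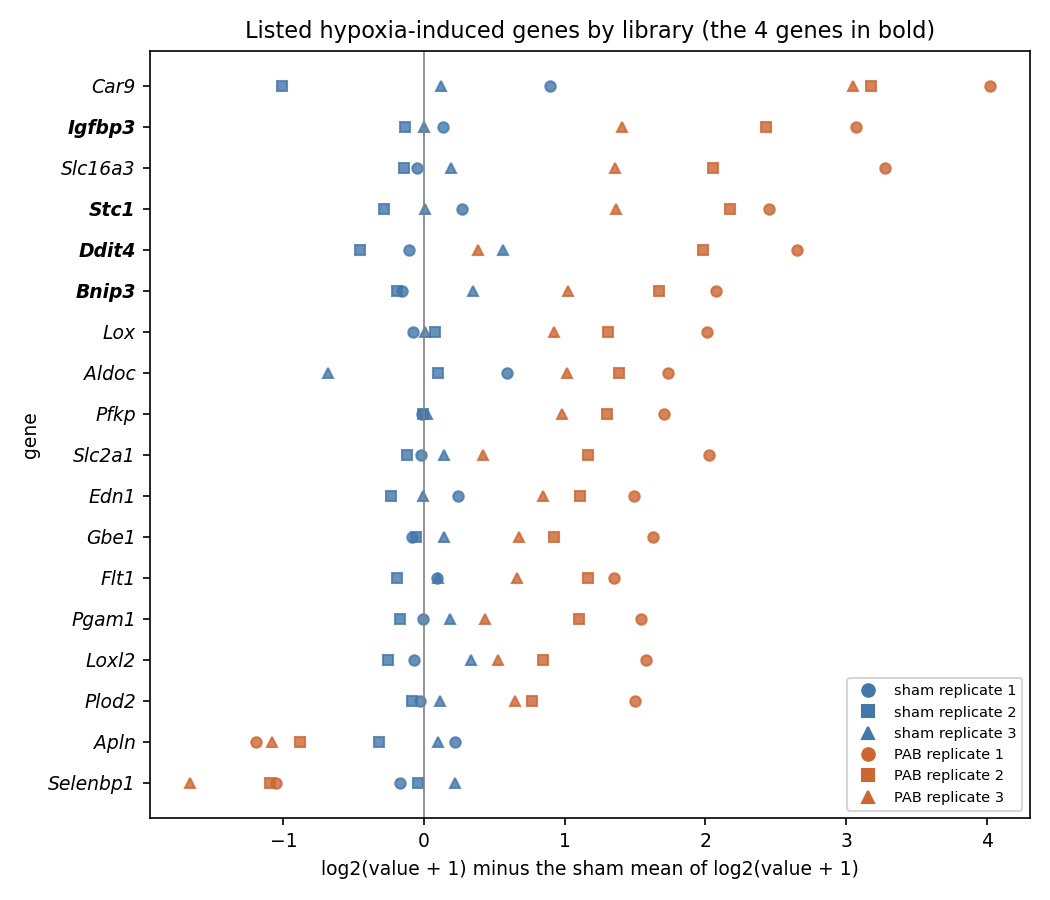
Listed hypoxia-induced genes, 18 in all with the 4 genes in bold, sorted by log2 fold change. The horizontal axis is log2(value + 1) minus the mean of the sham libraries and each symbol is 1 library; 16 genes had higher and 2 (Apln and Selenbp1) lower means in PAB, and of the 18 only Ddit4 had a PAB library among the sham libraries.

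None of 15 genes of the oxygen-sensing machinery, such as the hypoxia-inducible factors and their prolyl hydroxylases, was among the listed genes, and they were not analysed here. Absence means only that a gene was not listed by the authors, not that it was unchanged. The paper reports Hif1a as upregulated in neonatal RV tissue under pressure overload. Bnip3 was the only listed gene of 23 mitophagy genes. Of 21 genes of the BCL-2 family, the other listed gene was Bcl2, the inhibitor of apoptosis to which BNIP3 can bind. It had 276.2, 321.7 and 256.9 normalized reads in sham replicates 1, 2 and 3 and 648.6, 550.4 and 536.4 in PAB replicates 1, 2 and 3, a log2 fold change of 1.02. Bcl2 thus varied less than Bnip3 among the PAB libraries.

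Of 36 regulators of mTORC1 and AMPK, the energy-sensing kinase, Ddit4 and Prkab2 were listed. Prkab2, a regulatory subunit of AMPK, had 399.1, 366.6 and 363.9 normalized reads in sham replicates 1, 2 and 3 and 2715, 1004.6 and 614.9 in PAB replicates 1, 2 and 3. Its log2 fold change, 1.66, was near that of Ddit4, but its groups did not overlap. Of 19 targets of the integrated stress response, Ddit4 was listed with Gdf15, a secreted stress cytokine, which had a log2 fold change of 1.16.

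Stc1 was listed with 1 other of 4 genes of the stanniocalcin and pappalysin axis, namely Pappa, a protease that releases insulin-like growth factors from their binding proteins. Pappa was scarce, with 2.84, 4.68 and 10.5 normalized reads in sham replicates 1, 2 and 3 and 45.8, 25.8 and 7.95 in PAB replicates 1, 2 and 3, and its groups overlapped. Of 25 genes of the insulin-like growth factor axis, 5 were listed, with Igfbp3, Stc1, Pappa and Igf2bp3 higher and Igfbp6 lower in PAB. Igfbp6, a binding protein with a preference for IGF2, had 578.8, 664.0 and 482.4 normalized reads in sham replicates 1, 2 and 3 and 298.2, 259.8 and 290.1 in PAB replicates 1, 2 and 3. Igfbp3 and Igfbp6 were the 2 binding proteins of that list in the table, with log2 fold changes of 2.30 and -1.01. The table also holds Igfbpl1, a binding protein-like gene outside the list that was named after its values were seen, with a log2 fold change of -1.71.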

How the data were processed

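RV libraries were prepared with the NEBNext Ultra kit, and the submitters' processing notes name HISAT2 2.0.5, StringTie 1.3.3b, featureCounts 1.5.0-p3, GATK 3.7 and mm10. The paper calls the values FPKM, but 100% of the deposited signal values above 0 in each library were multiples of 1 step (within 0.01 of a whole number), so the authors divided read counts by a size factor. The test planned for FPKM, which fits a normalized signal, was kept and no count test was run. The deposited columns of log2 fold changes and p-values are the authors' DESeq2 comparison and were not used, except that the listing starts at an absolute log2 fold change of 1. The coordinates of the 4 genes matched GENCODE M21, and those of the other genes were not compared.

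Values were fitted as log2(value + 1) over all 617 genes (minimum mean 0.1, which removed none) with limma 3.58.1 in R 4.3.3 (eBayes with trend). The fit was tested on simulated data. Fold changes on this scale understate changes of low genes. The members and gene lists were chosen with earlier results of these data known. A further hypoxia-induced gene was left out of its list after its values were known, for a reason unrelated to them, and is not reported here. The counts and medians of that list are without it, and its effect on them is not shown. Named genes were the members, the listed genes of each list (at most 15, by mean) and the 3 closest genes per member by correlation of deviations from group means, at a mean of at least 10. Alternatives were the replicate block, leaving out each library, a pseudocount of 0.1, scaling by median ratios, a minimum mean of 1 or none, and eBayes without trend. Shared stretches were found with blastn 2.17.0. Other steps used Python 3.11.15, pandas 2.3.3 and matplotlib 3.10.9.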

Additional observations from a re-analysis of the deposited data

How the results depend on the processing

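The 4 log2 fold changes kept their direction under each alternative run. Median-ratio scaling over the listed genes raises PAB relative to sham by 0.594 (log2), under the assumption of a mostly stable table that the selection of its genes goes against. Under it the log2 fold change was 2.18 for Bnip3, 2.27 for Ddit4, 2.58 for Stc1 and 2.90 for Igfbp3, the median of the listed hypoxia-induced genes was 1.86, and none of the 4 genes overlapped between groups. In limma 617 genes of the table had an unadjusted p under 0.05, and 506 did under that scaling. The pseudocount and the filters moved no log2 fold change of the 4 genes by more than the spread between replicates. With each library left out, 591 to 614 genes of the table passed, 599 to 615 had no overlap, 3 to 4 of the 4 genes had none and the hypoxia median was 1.05 to 1.53.

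Both groups are numbered 1 to 3, but nothing in the labels pairs them. Deviations of same-numbered libraries correlated at -0.0593, -0.0546 and -0.199, and no library correlated best with its own number. With the replicate block the log2 fold changes were 1.59, 1.67, 2.0 and 2.30 in the order above, with standard errors of 0.34, 0.52, 0.32 and 0.33. Precision is limited by 3 libraries per group, and for Stc1 by as few as 63 reads.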
